A study of Mus musculus with 47 samples.

Results

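The hippocampal transcripts described here were 41 genes that mark astrocytes or their reactive state, taken by symbol from a table of 35486 genes. Of the 41, 40 were among the 17778 genes with enough reads to be tested, and Lcn2 was not. The rule took them by symbol alone. They fell into 6 roles, namely 10 intermediate filament and reactive genes, 6 genes of glutamate and amino acid handling, 8 of gap junctions, water and ion transport, 6 metabolic enzymes, 5 calcium-binding or secreted proteins, and 6 transcription factors, receptors and lineage genes.

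RNA was taken from the hippocampus of 47 male C57BL/6J mice of 2 ages that had been injected intraperitoneally, daily, with vehicle (Veh) or with mouse platelet factor 4 (mPF4), a chemokine released by platelets. There were 13 young mice on vehicle (Young Veh), 12 young mice on mPF4 (Young mPF4), 12 aging mice on vehicle (Aging Veh) and 10 aging mice on mPF4 (Aging mPF4). Young mice were 3.75 to 5.26 months old and aging mice 17.4 to 20.23 months old by the labels, each library came from 1 mouse, and none of the groups carried an engineered allele. The library numbers in the labels ran from 1 to 23 for aging and from 24 to 48 for young mice, so that anything that followed this order and age cannot be told apart. Between 2242879 and 21112908 reads were counted on genes per library. All 8 astrocyte markers (Aldh1l1, Aldoc, Aqp4, Gfap, Gja1, Slc1a2, Slc1a3 and Sox9) and all 10 neuronal markers, among them Prox1 of the dentate gyrus, were detected in the hippocampal libraries. Aging mPF4 replicate 3 stood apart in several reactive genes, and choroid plexus markers differed widely between libraries, so the called results that rest on either are given with and without it.

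Astrocytes clear glutamate from the synaptic cleft through the transporters encoded by Slc1a2 and Slc1a3, turn it into glutamine with the enzyme encoded by Glul, and buffer potassium and water through channels and gap junctions. In injury and disease they become reactive, a state known for more glial fibrillary acidic protein, and with age a milder form of it is known in the hippocampus. Signals through the shared cytokine receptor subunit gp130 and the transcription factor STAT3 are a known route to this state. In whole tissue, fewer astrocytes and less RNA per astrocyte cannot be told apart.

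Age moved a small number of these genes, and by little. In vehicle mice, Slc1a2, Glul and S100b rose and Slc7a10 and Aldh1l1 fell, and in mPF4 mice Gfap rose. The call of Slc1a2 held in every alternative fit, and each of the others was lost in some. Gfap was higher in aging vehicle mice too, by a log2 fold change of 0.27 ± 0.08, with an edgeR adjusted p of 0.0568 against a threshold of 0.05. The changes lay between 1.14-fold and 1.41-fold in size, and in each case the young and aging groups overlapped. No member passed the test for mPF4 in either age.

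The 250 bases before the RefSeq start sites (GRCm38.p6) are shown for 3 of the genes that passed a test with age, 2 that were higher and 1 that was lower, to show the letters in which CpG dinucleotides, the sites of DNA methylation, and motifs were counted. The Gfap stretch lies at chr11:102897201-102897450 on the minus strand, the S100b stretch at chr10:76253586-76253835 on the plus strand and the Slc7a10 stretch at chr7:35186135-35186384 on the plus strand. Capitals mark the CpGs, and each sequence reads 5′ to 3′ along its gene.
Gfap: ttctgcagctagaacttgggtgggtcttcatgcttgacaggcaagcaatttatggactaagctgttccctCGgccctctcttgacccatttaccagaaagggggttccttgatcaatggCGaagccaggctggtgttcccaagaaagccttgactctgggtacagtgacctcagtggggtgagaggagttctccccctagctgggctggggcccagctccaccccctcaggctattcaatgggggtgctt
S100b: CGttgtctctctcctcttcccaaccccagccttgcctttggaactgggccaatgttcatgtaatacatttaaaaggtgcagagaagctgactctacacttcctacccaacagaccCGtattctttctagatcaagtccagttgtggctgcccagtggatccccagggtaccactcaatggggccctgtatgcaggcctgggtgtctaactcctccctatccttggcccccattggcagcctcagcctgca
Slc7a10: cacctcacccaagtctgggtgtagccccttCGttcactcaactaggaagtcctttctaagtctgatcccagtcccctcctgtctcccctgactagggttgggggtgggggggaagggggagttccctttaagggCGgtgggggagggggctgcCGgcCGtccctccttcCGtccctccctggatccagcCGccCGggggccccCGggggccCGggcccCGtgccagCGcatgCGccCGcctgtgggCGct
The Gfap and S100b stretches each held 2 CpGs and that of Slc7a10 held 14, against a median of 6 over 32851 promoters. Of the other genes that passed a test with age, Slc1a2 and Glul, which were higher, held 1 and 15, and Aldh1l1, which was lower, held 7. The STAT motif TTCNNNGAA was searched on both strands of the same window and occurred in 7.02% of all promoters. None of the 6 genes that passed held it, nor the AP-1 motif TGACTCA, which was in 4.46% of promoters on either strand, nor the NFI motif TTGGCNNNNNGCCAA, which was in 0.0365%. Among the 36 members with a RefSeq promoter entry, Aldoc, Emp1, Ntsr2, Pla2g7, Slc1a3 and Steap4 held the STAT motif and Acsl6, Emp1 and Gja1 the AP-1 motif. A match describes letters and not a bound site.

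In reads per kilobase per megaread (RPKM), a level corrected for transcript length and library depth, the members spanned a wide range. Cst3, which encodes the protease inhibitor cystatin C, was the highest, with a median of 1490 RPKM over the 47 libraries. It was followed by Clu (699), which encodes the chaperone clusterin, Sparcl1 (504), which encodes a secreted matrix protein, Aldoc (314), the brain aldolase, Ndrg2 (248) and Gfap (228). The glutamate transporters Slc1a3 and Slc1a2 had medians of 176 and 134 RPKM. Of the reactive genes other than Gfap, Serpina3n (16.6) and Vim (13.8) were moderate, and Thbs4 (3.18), Osmr (1.71), Cd44 (1.51), Fbln5 (1.29), Emp1 (0.518) and Steap4 (0.278) were low. Lcn2, which encodes lipocalin 2, had 99 reads in all, with 0 in 24 libraries. The median over tested members of the within-group SD was 0.17 on the scale of log2 counts per megaread (CPM), against 0.21 for all tested genes, and within the roles the median over tested members ran from 0.13 for secreted proteins to 0.35 for reactive genes.

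Aging was first compared in vehicle mice, which asks how astrocyte transcripts differ with age in the absence of treatment. In the quasi-likelihood test of edgeR, with p-values adjusted by Benjamini and Hochberg's method over all tested genes, 5 of 40 members passed an adjusted p of 0.05 (12.5%), where 2.77% of all 17778 tested genes did. Of these, 3 were higher and 2 lower in Aging Veh, where 2.16% and 0.607% of all genes were called higher and lower. At an unadjusted p below 0.05 there were 11 members (27.5%), against 15.2% of all genes. The members showed no common direction, since 17 had higher and 23 lower estimates and their median log2 fold change was -0.01, as it was over all genes (-0.01).

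Slc1a2, at chromosome 2, 102658659 to 102790784, encodes GLT-1, the main glutamate transporter of the forebrain. Its level in Young Veh ran from 1382 to 1628 CPM with a median of 1467, and in Aging Veh from 1545 to 1871 with a median of 1729. All 12 Aging Veh mice were above the young median and 10 were above every Young Veh mouse. This gave a log2 fold change of 0.19 ± 0.03 (SE), or 1.14-fold, with an adjusted p of 0.000274 in edgeR. In mPF4 mice the range was 1428 to 1591 CPM with a median of 1476 in Young mPF4, and 1522 to 1771 with a median of 1596 in Aging mPF4. There the log2 fold change was 0.13 ± 0.04 with an adjusted p of 0.121 in edgeR and of 0.0319, past the threshold, in DESeq2, and 5 of 10 Aging mPF4 mice were above every Young mPF4 mouse. The difference in vehicle mice passed in each of the 25 fits that left out 1 of its libraries.

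Glul (chromosome 1, 153899944 to 153909723), which encodes glutamine synthetase, ran from 175 to 243 CPM in Young Veh (median 199) and from 197 to 266 CPM in Aging Veh (median 231). The groups overlapped, with 4 of 12 Aging Veh mice above every Young Veh mouse and 11 above the young median. edgeR gave a log2 fold change of 0.20 ± 0.05 (edgeR adjusted p = 0.0286). In mPF4 mice Glul ran from 168 to 226 CPM when young (median 193) and from 202 to 260 when aging (median 218), again with overlap. That log2 fold change was also 0.20 ± 0.06, with an edgeR adjusted p of 0.131. Without Aging Veh replicate 1 the vehicle comparison gave 0.18 and an adjusted p of 0.0618. Glul was also not called with the score of oligodendrocyte markers given below in the fit (0.15 ± 0.05, edgeR adjusted p = 0.0757). The same held without the 8 libraries of lowest depth (0.17 ± 0.06, 0.17).

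Slc7a10 (chromosome 7, 35186385 to 35201114) encodes Asc-1, a transporter of small neutral amino acids including glycine and D-serine. It ran from 39.97 to 72.1 CPM in Young Veh (median 55.2) and from 32.5 to 59.0 CPM in Aging Veh (median 38.3). Of the 12 Aging Veh mice, 7 were below every Young Veh mouse and 2 were above the young median. The estimate was a log2 fold change of -0.37 ± 0.10 (edgeR adjusted p = 0.0344). In mPF4 mice the range was 39.998 to 70.7 CPM when young (median 57.6) and 34.98 to 59.3 when aging (median 39.9), a log2 fold change of -0.38 ± 0.11 with an edgeR adjusted p of 0.144. The groups overlapped in both treatments.

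The level of Slc7a10 varied with markers of choroid plexus. A choroid plexus score, the mean log2 CPM of 10 markers of the epithelium that makes cerebrospinal fluid (Aqp1, Calml4, Clic6, Folr1, Kcne2, Otx2, Prlr, Slc4a5, Sostdc1 and Ttr), correlated with Slc7a10 at r = 0.88 over the 47 libraries after group means were removed. The summed CPM of these markers had a median of 1943 in Young Veh (12.0 to 4259) and 2380 in Young mPF4 (94.0 to 3448), but 47.1 in Aging Veh (15.1 to 4259) and 65.9 in Aging mPF4 (25.9 to 3280). All 10 were lower in both aging comparisons, none passing the test. With the score in the fit, the log2 fold change of Slc7a10 in vehicle mice was -0.14 ± 0.05 and its edgeR adjusted p was 0.176, and in mPF4 mice they were -0.17 ± 0.06 and 0.245. The call was also lost in 13 of 25 fits that left out 1 library each, with the highest adjusted p, 0.0678, without Aging Veh replicate 3. The other libraries were Aging Veh replicates 1, 2, 5, 6, 7, 8 and 12 and Young Veh replicates 3, 4, 5, 9 and 11. With the length index in the fit the edgeR adjusted p was 0.0548. Slc7a10 also overlaps Lrp3 on the opposite strand, whose reads came to 79.8% of its own, and without strand information the reads of the pair cannot be told apart. The log2 fold change of Lrp3 itself was -0.15 ± 0.04 (edgeR adjusted p = 0.0524).

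**Figure D1:**
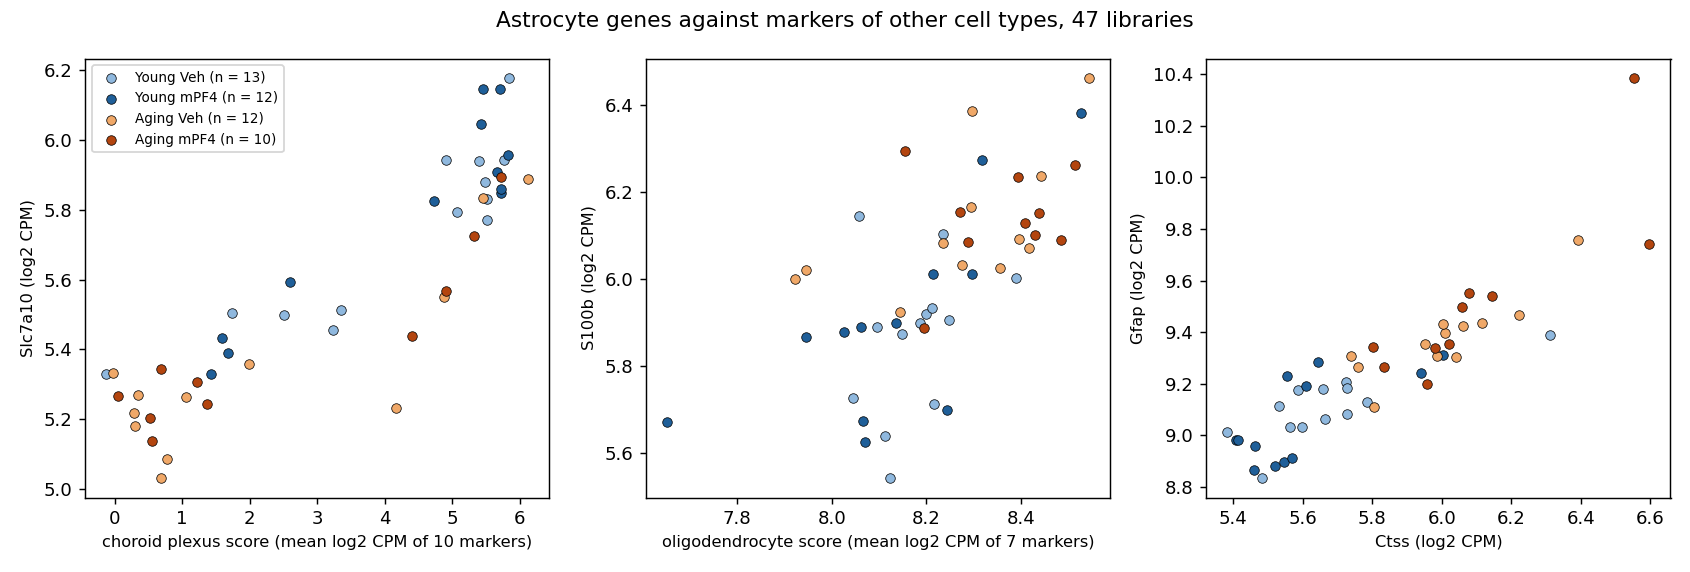
Each point is 1 of 47 libraries, coloured by group, and all axes are log2 CPM. Slc7a10 climbs with the mean of 10 choroid plexus markers (left), S100b increases loosely with the mean of 7 oligodendrocyte markers (middle) and Gfap with the microglial gene Ctss (right), where 1 Aging mPF4 library lies apart at 10.38 for Gfap.

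The other members that handle glutamate and related amino acids did not pass. Slc1a3, which encodes the transporter GLAST, ran from 729 to 902 CPM in Young Veh (median 779) and from 721 to 884 in Aging Veh (median 768), with a log2 fold change of -0.03 ± 0.04 (edgeR adjusted p = 0.773). Gldc, of the glycine cleavage system, had log2 fold changes of -0.06 ± 0.06 in vehicle and -0.02 ± 0.07 in mPF4 mice, and Cbs, which makes cystathionine, -0.02 ± 0.06 and 0.09 ± 0.06. The estimates of these 3 genes were within 1 or 2 standard errors of 0 in both treatments.

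S100b (chromosome 10, 76253853 to 76261159) encodes a calcium-binding protein of astrocytes that some oligodendrocytes also express. It ran from 46.4 to 70.5 CPM in Young Veh (median 59.4) and from 60.5 to 87.9 CPM in Aging Veh (median 67.3). All 12 Aging Veh mice were above the young median and 4 were above every Young Veh mouse. The fitted log2 fold change was 0.24 ± 0.07 (edgeR adjusted p = 0.0426). In mPF4 mice the range was 49.2 to 83.2 CPM when young (median 58.9) and 59.0 to 78.3 when aging (median 70.3), a log2 fold change of 0.23 ± 0.07 with an edgeR adjusted p of 0.233.

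S100b also varied with markers of another cell type. The mean log2 CPM of 7 oligodendrocyte markers (Mbp, Mog, Mag, Mobp, Cnp, Cldn11 and Ermn) correlated within groups with S100b at r = 0.55 and with Glul at r = 0.50. None of the 7 passed a test with age in either treatment, but 6 were higher in Aging Veh and all 7 in Aging mPF4, and their summed CPM was 4757 (4207 to 5198) in Young Veh, 5112 (4076 to 6027) in Aging Veh, 4563 (3235 to 5897) in Young mPF4 and 5517 (4731 to 5872) in Aging mPF4, as median and range. With that score in the fit the vehicle log2 fold changes were 0.18 ± 0.06 for S100b (edgeR adjusted p = 0.0974) and 0.15 ± 0.05 for Glul (0.0757), and those in mPF4 mice 0.10 ± 0.07 (0.736) and 0.10 ± 0.06 (0.638). The S100b call was also lost when any of Young Veh replicates 3, 5, 11 or 13 or Aging Veh replicates 1, 2, 6, 7 or 9 was left out, up to an adjusted p of 0.098 without Aging Veh replicate 1. With the choroid plexus score in the fit it was lost too, at 0.21 ± 0.07 (edgeR adjusted p = 0.12), and it missed the threshold with no count filter (0.0615). S100b overlaps Dip2a, on the opposite strand and with 80.1% as many reads, which had a log2 fold change of 0.14 ± 0.08 (edgeR adjusted p = 0.397).

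Of the other calcium-binding and secreted proteins, Hapln1, which encodes a link protein of the perineuronal matrix, came nearest in vehicle mice, at 0.16 ± 0.06 (edgeR adjusted p = 0.128). It ran from 25.3 to 32.4 CPM in Young Veh (median 28.6) and from 27.1 to 37.5 in Aging Veh (median 32.7), so the groups overlapped. Cst3, Clu and Sparcl1, the 3 most abundant members, had log2 fold changes between -0.07 and 0.03 in vehicle mice and between -0.03 and 0.09 in mPF4 mice, with none called.

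Aldh1l1 (chromosome 6, 90486427 to 90600203), a folate enzyme used as a marker of all astrocytes, ran from 43.8 to 56.2 CPM in Young Veh (median 51.1) and from 39.1 to 52.7 CPM in Aging Veh (median 43.4). Of the 12 Aging Veh mice, 6 were below every Young Veh mouse and 1 was above the young median. The groups differed by a log2 fold change of -0.19 ± 0.06, with an edgeR adjusted p of 0.0465, close to the threshold. In mPF4 mice Aldh1l1 ran from 40.7 to 65.8 CPM when young (median 50.6) and from 38.6 to 58.0 when aging (median 50.9), and its log2 fold change was -0.03 ± 0.06 (edgeR adjusted p = 0.957). The vehicle call held in 3 of 25 fits with 1 library left out, those without Young Veh replicates 4 or 9 or Aging Veh replicate 2, and elsewhere the adjusted p reached 0.0942, without Aging Veh replicate 12. With the choroid plexus score in the fit the estimate was -0.20 ± 0.06 and the call was lost (edgeR adjusted p = 0.0733), as it was with the size factors of DESeq2 (0.0523), no count filter (0.0597) or a filter of at least 10 reads in at least 10 libraries (0.0518). Of the 5 members called in vehicle mice, only Slc1a2 also passed without the 8 libraries of lowest depth. The 5 other metabolic members, Aldoc, Acsl6, Ppp1r3c, Pla2g7 and Plpp3, had vehicle log2 fold changes between -0.06 and 0.04.

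Gfap (chromosome 11, 102887336 to 102900912, minus strand) encodes the glial fibrillary acidic protein of the astrocyte cytoskeleton. In vehicle mice it ran from 457 to 669 CPM when young (median 554) and from 553 to 865 when aging (median 664). Of the 12 Aging Veh mice, 11 were above the young median and 6 above every Young Veh mouse. That was a log2 fold change of 0.27 ± 0.08 with an edgeR adjusted p of 0.0568, just outside the threshold, and it passed without Young Veh replicate 4 (0.0312) or without Aging Veh replicates 8 (0.0372) or 11 (0.0474). It also passed in DESeq2 (adjusted p = 0.0321), and in edgeR with these groups fitted alone (adjusted p = 0.00365) or with the length index in the fit (0.0088). It did not pass with the choroid plexus score (0.25 ± 0.09, edgeR adjusted p = 0.136), the oligodendrocyte score (0.23 ± 0.08, 0.13), no count filter (0.0832) or without the 8 libraries of lowest depth (0.119), and single libraries left out took it up to 0.108.

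In mPF4 mice Gfap ran from 466.3 to 636 CPM when young (median 505) and from 587 to 1336 when aging (median 688). All 10 Aging mPF4 mice were above the young median and 8 were above every Young mPF4 mouse. It was the only one of 40 members called by edgeR in this comparison (2.5%), where 0.332% of all tested genes were, with a log2 fold change of 0.49 ± 0.09 (1.41-fold, edgeR adjusted p = 0.00179). At an unadjusted p below 0.05 there were 7 members (17.5%), against 8.27% of all genes. The highest library, Aging mPF4 replicate 3, was the highest of all 47 for Gfap, Serpina3n, Vim, Osmr, C1qb and C4b. Without it the log2 fold change of Gfap was 0.37 ± 0.07 and the edgeR adjusted p was 0.00319, and the call held in all 22 fits that left out 1 library of this comparison. It did not hold when the oligodendrocyte score was in the fit (0.39 ± 0.09, edgeR adjusted p = 0.0825) or when these groups were fitted alone (0.49 ± 0.11, 0.0559). The effect of age on Gfap in mPF4 mice was not shown to differ from that in vehicle mice, since the difference was 0.22 ± 0.12 with an unadjusted p of 0.0733 and an edgeR adjusted p of 1.0, and 0.09 ± 0.09 without Aging mPF4 replicate 3.

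**Figure D2:**
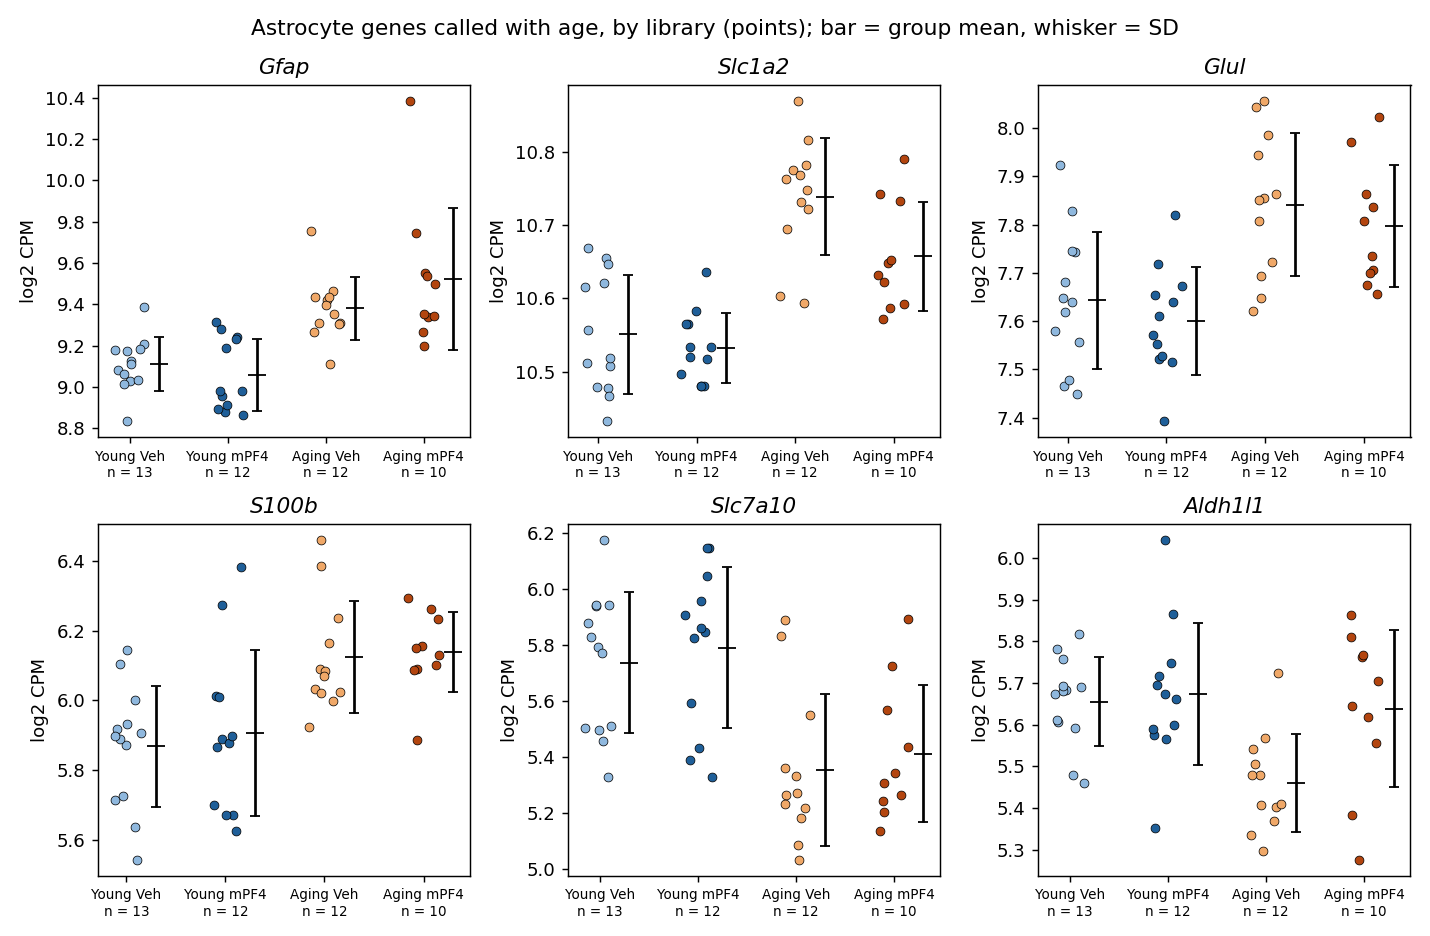
Log2 CPM of the 6 genes that passed a test with age, 1 point per library, with the group mean (bar) and SD (whisker) beside the points. The Young and Aging groups overlap for every gene, and the highest Gfap point, at 10.38, is Aging mPF4 replicate 3.

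The other reactive genes did not pass in either treatment. Serpina3n, a secreted protease inhibitor of reactive astrocytes, ran from 27.5 to 39.5 CPM in Young Veh (median 32.9) and from 30.3 to 46.9 in Aging Veh (median 38.1), with a log2 fold change of 0.22 ± 0.09 (edgeR adjusted p = 0.209). In mPF4 mice it ran from 29.5 to 39.2 CPM (median 33.96) and from 28.3 to 67.7 (median 33.4), with 0.20 ± 0.10 (0.584). The aging median was therefore not above the young one in mPF4 mice, and the highest value was again that of replicate 3, without which the estimate was 0.07 ± 0.08. With the choroid plexus score in the fit the estimates were 0.12 ± 0.09 and 0.11 ± 0.09. Vim, the intermediate filament vimentin, which vessels and choroid plexus also express, had medians of 41.99 CPM in Young Veh, 36.2 in Aging Veh, 36.8 in Young mPF4 and 45.7 in Aging mPF4. Its log2 fold changes had opposite signs, -0.12 ± 0.13 in vehicle and 0.20 ± 0.14 in mPF4 mice, the latter 0.12 ± 0.14 without Aging mPF4 replicate 3.

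Osmr, the oncostatin M receptor, ran from 5.77 to 12.1 CPM in Young Veh (median 8.41) and from 7.53 to 13.5 in Aging Veh (median 11.3), with a log2 fold change of 0.34 ± 0.13 (edgeR adjusted p = 0.174). Thbs4, a thrombospondin, and Cd44, the hyaluronan receptor, had 0.12 ± 0.12 and 0.04 ± 0.18 in vehicle mice and 0.27 ± 0.13 and 0.34 ± 0.19 in mPF4 mice. Steap4, Fbln5 and Emp1 had estimates between -0.80 and 0.01 over both treatments, with standard errors of 0.20 to 0.52, and none of them passed. With the choroid plexus score the vehicle estimate of Steap4 went from -0.69 ± 0.49 to 0.12 ± 0.39 and that of Fbln5 from -0.24 ± 0.22 to 0.05 ± 0.19.

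**Figure D3:**
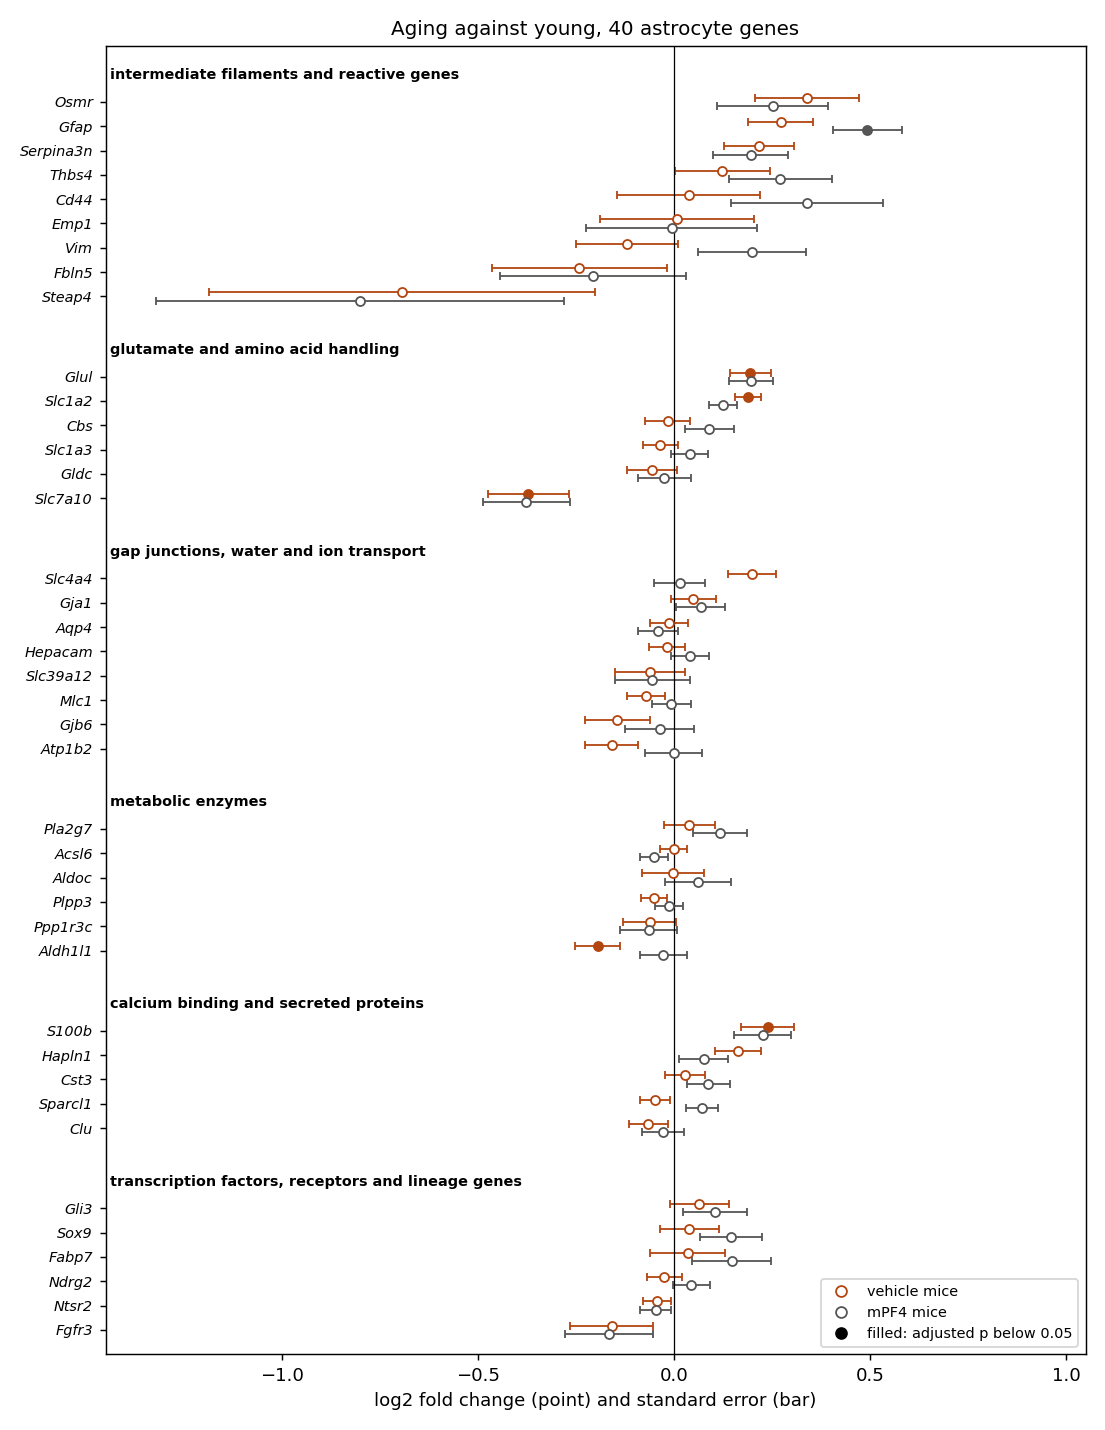
Log2 fold change (point) and standard error (bar) of aging against young for the 40 tested members, by role, in vehicle mice (orange) and mPF4 mice (grey). Filled points have an adjusted p below 0.05, 5 in vehicle mice and 1 in mPF4 mice, and the other points are open.

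No gene of gap junctions, water and ion transport passed the test of edgeR with age. Gja1, which encodes connexin 43, ran from 272 to 381 CPM in Young Veh (median 317) and from 283 to 383 in Aging Veh (median 324), with a log2 fold change of 0.05 ± 0.06 (edgeR adjusted p = 0.74). Aqp4, the water channel of astrocyte endfeet, ran from 150 to 192 CPM (median 175) and from 155 to 192 CPM (median 166), with -0.01 ± 0.05 (0.943). In mPF4 mice these 2 genes had 0.07 ± 0.06 and -0.04 ± 0.05. The groups covered nearly the same range for both genes.

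Slc4a4, the sodium bicarbonate cotransporter NBCe1, was the member of this role with the smallest p. It ran from 135 to 208 CPM in Young Veh (median 184) and from 162 to 241 in Aging Veh (median 216), with 7 of 12 Aging Veh mice above every Young Veh mouse. This gave a log2 fold change of 0.20 ± 0.06 with an adjusted p of 0.062 in edgeR and of 0.0477 in DESeq2. In mPF4 mice the medians were 180 and 187 CPM and the log2 fold change was 0.01 ± 0.07. Atp1b2, a sodium pump subunit, and Gjb6, connexin 30, had -0.16 ± 0.07 and -0.14 ± 0.08 in vehicle mice, and Mlc1, Hepacam and Slc39a12 lay between -0.07 and -0.02. Sox9, Gli3, Fgfr3, Ntsr2, Fabp7 and Ndrg2, the lineage and receptor genes, had log2 fold changes between -0.16 and 0.07 in vehicle mice and between -0.17 and 0.15 in mPF4 mice, and 0 of 6 passed in either.

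Averaging the age effect over both treatments, an alternative chosen after the data had been seen, gave 5 of 40 members called, where 4.71% of all genes were. These were Slc1a2 at 0.16 ± 0.02 (edgeR adjusted p = 1.85e-05), Gfap at 0.38 ± 0.06 (2.38e-05), Glul at 0.20 ± 0.04 (0.000789), S100b at 0.23 ± 0.05 (0.00254) and Slc7a10 at -0.37 ± 0.08 (0.00112). Aldh1l1 was not called, at -0.11 ± 0.04 (0.112). Without Aging mPF4 replicate 3 the averaged value of Gfap was 0.32 ± 0.05 (edgeR adjusted p = 4.86e-06). With the choroid plexus score in the fit that of Slc7a10 was -0.16 ± 0.04 (edgeR adjusted p = 0.02). With the oligodendrocyte score those of S100b and Glul were 0.14 ± 0.05 (edgeR adjusted p = 0.108) and 0.13 ± 0.04 (0.0616), no longer called. In the averaged comparison 2 of the 7 oligodendrocyte markers were themselves called, both higher with age. The 2 aging comparisons share no mice.

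The effect of mPF4 was then compared within each age, which asks whether the treatment altered astrocyte transcripts. These comparisons reuse the Aging Veh, Aging mPF4, Young Veh and Young mPF4 mice of the comparisons above. In aging mice 0 of 40 members were called by edgeR and 0 by DESeq2, where 0.0337% of all genes were called by edgeR, and 4 members (10%) had an unadjusted p below 0.05, against 6.2% of all genes. In young mice 0 of 40 members were called by either tool, where 0% of all genes were by edgeR, and 0 had an unadjusted p below 0.05, against 1.2%. All 40 estimates lay within 0.23 of 0 in aging and within 0.21 of 0 in young mice.

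In aging mice Aldh1l1 had the smallest p. Against the Aging Veh range of 39.1 to 52.7 CPM and median of 43.4, its Aging mPF4 levels spanned 38.6 to 58.0 CPM around a median of 50.9, with 8 of 10 mPF4 mice above the vehicle median and 4 above every vehicle mouse. edgeR gave a log2 fold change of 0.19 ± 0.06, with an unadjusted p of 0.0024 and an edgeR adjusted p of 0.391. In young mice it was 0.03 ± 0.06. Slc4a4 spanned 134 to 209 CPM in Aging mPF4 mice (median 187), against 162 to 241 CPM and a median of 216 with vehicle, with all 10 mPF4 mice below the vehicle median and a log2 fold change of -0.19 ± 0.07 (edgeR adjusted p = 0.531). Both genes had estimates of opposite sign for age in vehicle mice and for mPF4 in aging mice, and the Aging Veh mice enter both, so that the values are given side by side and not read against each other.

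Slc1a2, with medians of 1729 CPM in Aging Veh and 1596 in Aging mPF4, had a log2 fold change of -0.08 ± 0.04 (edgeR adjusted p = 0.734), and Sparcl1, with medians of 1361 and 1420 CPM, had 0.09 ± 0.04 (0.777). Gfap had 0.18 ± 0.09 (0.81), with medians of 664 and 688 CPM. Without Aging mPF4 replicate 3 this estimate was 0.05 ± 0.07. In young mice the genes with the smallest p were Acsl6, an acyl-CoA synthetase, at 0.06 ± 0.03, Thbs4 at -0.21 ± 0.12, Hepacam, an adhesion molecule that binds Mlc1, at -0.05 ± 0.05, Ppp1r3c, a glycogen-targeting subunit, at -0.06 ± 0.07, and Gldc at -0.06 ± 0.06, each with an edgeR adjusted p of 1.0.

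Whether mPF4 acted differently at the 2 ages, tested as an interaction, called 0 of 40 members with edgeR and 0 with DESeq2, where 0% of all genes were called by edgeR, and 3 members (7.5%) had an unadjusted p below 0.05 against 3.98% of all genes. These were Sparcl1 (0.12 ± 0.06), Slc4a4 (-0.18 ± 0.09) and Aldh1l1 (0.17 ± 0.08), followed by Gfap (0.22 ± 0.12, or 0.09 ± 0.09 without Aging mPF4 replicate 3) and Vim (0.32 ± 0.19, or 0.24 ± 0.19 without it), all with an edgeR adjusted p of 1.0.

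**Figure D4:**
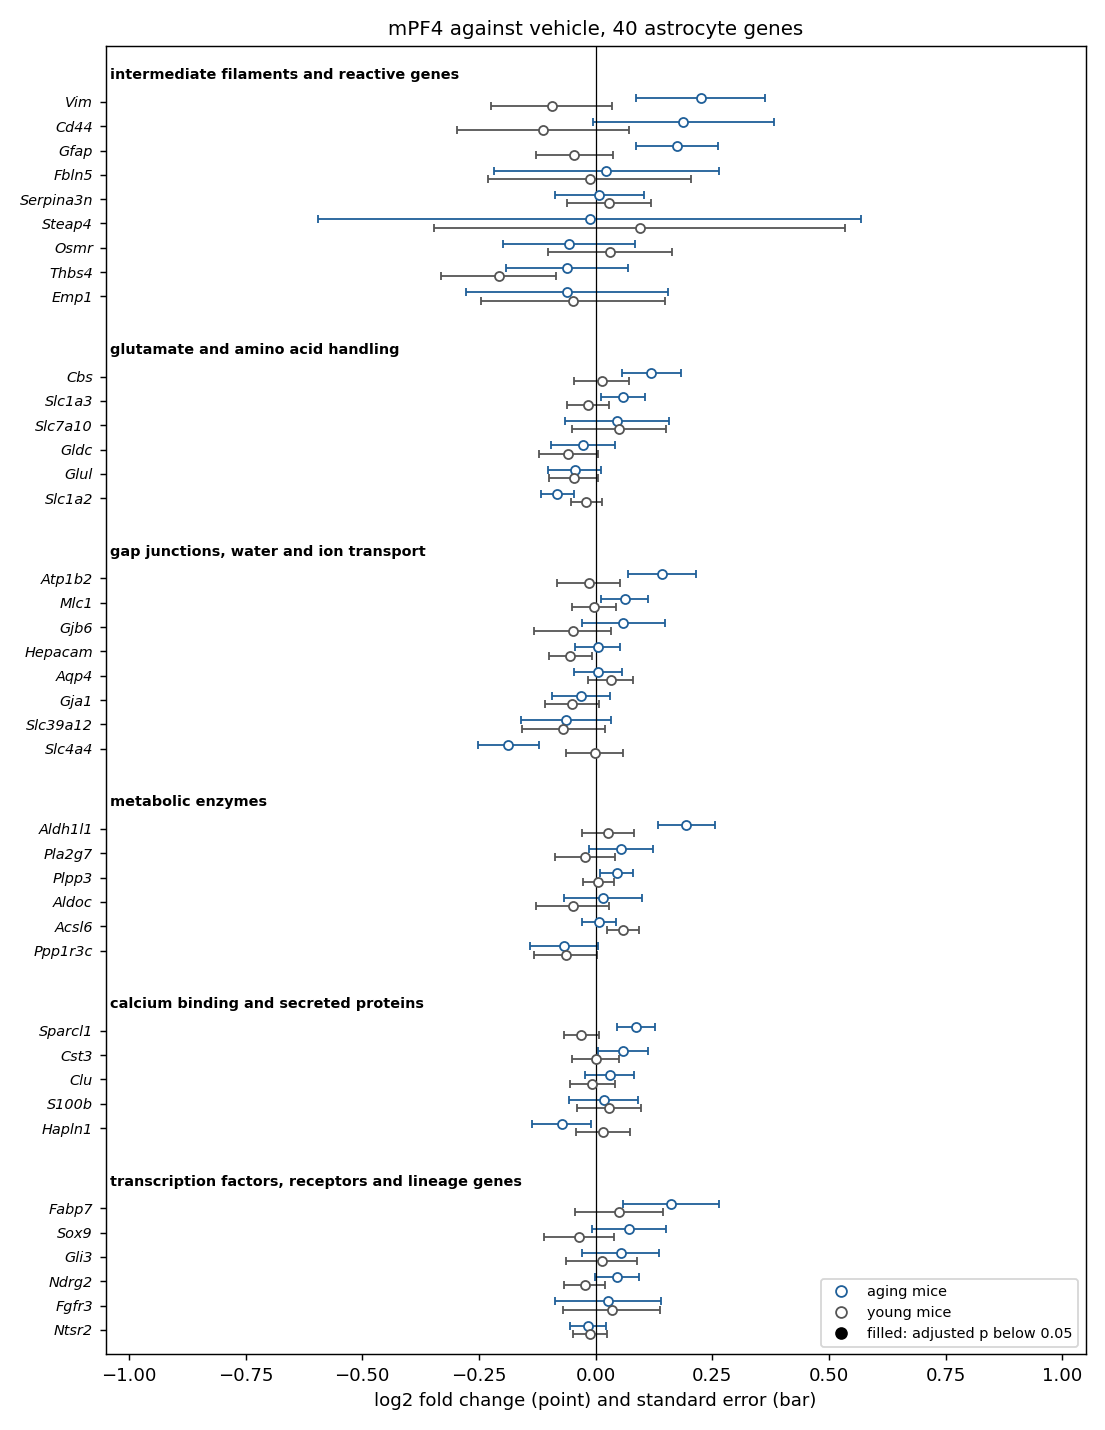
Log2 fold change (point) and standard error (bar) of mPF4 against vehicle for the 40 tested members, by role, in aging mice (blue) and young mice (grey). All points are open, since 0 members had an adjusted p below 0.05, and all lie within 0.23 of 0.

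Genes outside the 41 were read from 3 lists. Of 36 other genes typical of astrocytes, all tested, 0 passed in either aging comparison, and the nearest were Lcat (-0.18 ± 0.07, edgeR adjusted p = 0.156) and Cldn10 (0.12 ± 0.05, 0.178) in vehicle mice, and Slc14a1 (0.15 ± 0.07, 0.511) and Cldn10 (0.10 ± 0.05, 0.584) in mPF4 mice. Their median log2 fold changes were -0.02 and -0.01. With the age effect averaged over treatments, 2 of these 36 were called, and 5 of the 26 tested genes in the reactive list that follows. All of them were higher with age, and 4.71% of all genes were called there. Of 31 other reactive astrocyte genes, 26 were tested and 2 were called higher with age in each treatment, as were 2.16% and 0.304% of all genes. The complement gene C4b rose in both, from a median of 37.8 to 71.6 CPM in vehicle mice (0.97 ± 0.15, edgeR adjusted p = 2.8e-05) and from 36.5 to 81.5 CPM in mPF4 mice (1.26 ± 0.16, 2.22e-06), or 1.03 ± 0.13 without Aging mPF4 replicate 3. In vehicle mice H2-D1, of the class I major histocompatibility complex, rose by 0.35 ± 0.08 (edgeR adjusted p = 0.00936), and in mPF4 mice the complement gene C3 rose by 1.06 ± 0.25 (0.0319). The C3 call was lost in 12 of 22 fits that left out 1 library, namely Young mPF4 replicates 2, 4, 5, 6, 7, 9 or 11 or Aging mPF4 replicates 2, 3, 6, 7 or 10, with edgeR adjusted p up to 0.0771, and with the oligodendrocyte score, while C4b passed in all 22 and in all 25 of the vehicle comparison. H2-D1 did not pass without the 8 libraries of lowest depth. These genes are not expressed by astrocytes alone.

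The third list held 15 genes of the gp130 and STAT3 pathway, of which 13 were tested. In vehicle mice Il11ra1, the interleukin 11 receptor, fell by 0.37 ± 0.09 on the log2 scale (edgeR adjusted p = 0.0105), from a median of 12.8 to 10.5 CPM, where 0.607% of all genes were called lower. It did not pass with the choroid plexus score in the fit, without the 8 libraries of lowest depth or averaged over both treatments. In mPF4 mice 0 of 13 passed, and the smallest p values belonged to the phosphatase gene Ptpn11 (0.12 ± 0.05) and the feedback inhibitor gene Socs3 (0.42 ± 0.20). For mPF4 against vehicle, 0 genes of the 3 lists passed in either age. The smallest p values in aging mice were those of Nwd1 (-0.18 ± 0.08) and Agt (0.22 ± 0.11) among the astrocyte genes, Ptx3 (1.23 ± 0.35) and Ggta1 (0.31 ± 0.13) among the reactive genes, and Il11ra1 (0.29 ± 0.09) and Socs3 (0.51 ± 0.20) in the pathway.

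The genes whose levels were most like those of Gfap were not other members. Over the 47 libraries, with group means removed, the highest Pearson correlations with Gfap among 17777 genes were those of Ctss (0.78), C1qc (0.78), Trem2 (0.72), Tspan15 (0.71) and C1qb (0.69). Ctss, C1qc, Trem2 and C1qb are known as microglial genes. Serpina3n ranked 7th, at 0.65. Without Aging mPF4 replicate 3, the library that stands apart, Ctss (0.80) and C1qc (0.77) were still first and second, and Rab31 (0.76), Dbndd2 (0.76) and Pfkl (0.76) followed, while Trem2 was at 0.58 (ranked 598th), C1qb at 0.54 (912th) and Serpina3n at 0.41. The points share library preparation and depth, and the correlations are descriptions. Gfap also correlated with the length index of the libraries (the mean level of long minus that of short transcripts), at -0.40. Young Veh replicate 4, lowest in that index (-0.35), was highest of Young Veh for both Gfap (log2 CPM 9.39) and Ctss (6.31). The part of the index in these values was not tested.

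Markers of microglia moved with Gfap across groups too. All 7 (Cx3cr1, P2ry12, Tmem119, Csf1r, C1qa, C1qb and Aif1) were higher with age in both treatments, C1qa and C1qb passing in both. With the age effect averaged over treatments 5 of the 7 passed, where 4.71% of all genes did. The summed CPM of all 7 had a median of 318 (281 to 346) in Young Veh, 358 (301 to 393) in Aging Veh, 320.2 (284 to 346) in Young mPF4 and 376 (321 to 460) in Aging mPF4. Their part in the Gfap values was not tested. For Slc1a2 the most similar genes were Celf2 (0.70), Arfgef3 (0.69), Igip (0.69), Ccdc50 (0.61) and Gfod1 (0.61), and the nearest member was Glul, at 0.31.

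The 41 genes did not move as 1 block between mice. Over 780 pairs of tested members the median correlation within groups was 0.05, and 58.3% of pairs were above 0. Close pairs were Ndrg2 and Aldoc (0.80), Gja1 and Pla2g7 (0.79), Clu and Vim (0.75) and Sparcl1 and Atp1b2 (0.75). A length index of each library (the mean level of long minus that of short transcripts) correlated with Fgfr3 at 0.69, Aldoc at -0.69 and Pla2g7 at -0.71. For the other genes of the close pairs it was -0.66 for Ndrg2, -0.44 for Gja1, -0.48 for Sparcl1, -0.57 for Atp1b2, 0.41 for Clu and 0.58 for Vim. The 2 genes of each pair thus had the same sign, and the part of the index in the pairs was not tested. The choroid plexus score also correlated with Steap4 (0.72), Slc39a12 (0.69), Clu (0.64) and Fbln5 (0.58), and its part in those values was not tested beyond the fit above.

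**Figure D5:**
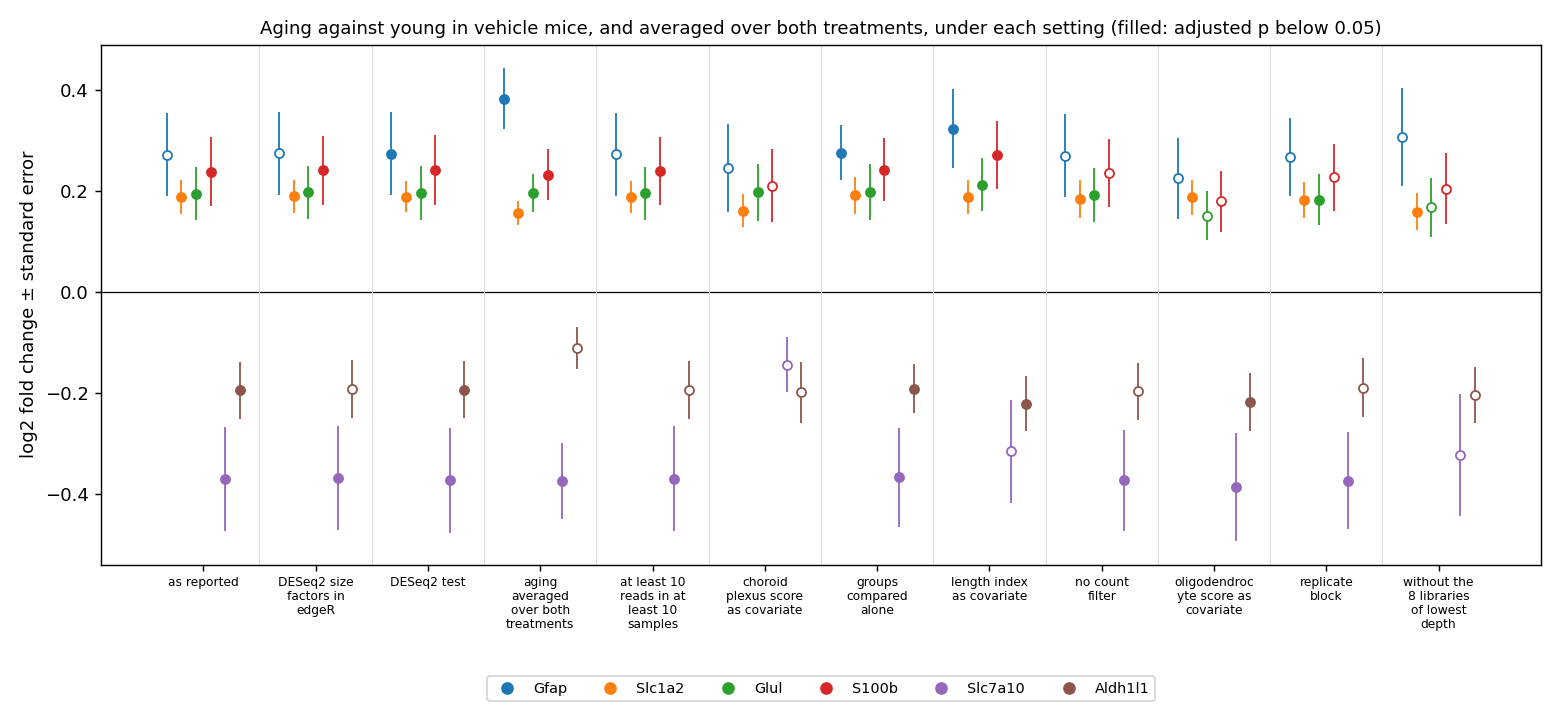
Log2 fold change and standard error of aging against young in vehicle mice for 6 members under 12 settings, 1 of which averages the age effect over vehicle and mPF4 mice, with filled points where the adjusted p was below 0.05. Slc1a2 is filled throughout, between 0.16 and 0.19, while Slc7a10 moves to -0.14 with the choroid plexus score in the fit.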

How the data were processed

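Hippocampal RNA from 47 mice was sequenced as unstranded Smart-Seq2 and Nextera XT libraries. The labels name Trim Galore 0.3.7 for trimming, STAR 2.5.3a for alignment, the build GRCm38 and DESeq2, and the authors deposited whole-number counts of reads per gene without normalization. The counting tool and annotation release are not given in the sources used here. Age and treatment labels set the groups, 1 library number of the Aging mPF4 series was not analysed here, and where nothing says otherwise each library was taken as a separate mouse.

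From the counts, edgeR 4.0.16 in R 4.3.3 fitted all 4 groups together, with TMM scaling and filterByExpr (17778 of 35486 genes kept), and genes with an adjusted p below 0.05 over all of these were called. The standard error of a log2 fold change is its size over the square root of F. CPM used edgeR's scaled library sizes, log2 CPM a prior count of 2, and RPKM the longest GENCODE M21 transcript. DESeq2 1.42.0 was run as an alternative, as it is the tool the study's methods name. Other alternatives were other scaling and filters, groups fitted alone, a replicate block, covariates (choroid plexus score, oligodendrocyte score and length index, which sets transcripts of at least 4594 bases against those of at most 2006), the 8 shallowest libraries left out, each library left out in turn, and, added after the data were seen, an age effect averaged over treatments, also with either score or without 1 library. The fit was tested on simulated counts.

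The members and lists were chosen with earlier results of these data known. Named with levels, log2 fold changes or both were Gfap, Vim, Serpina3n, Slc1a2, Slc1a3, Aldh1l1, Aqp4 and Gja1, every called member, the 5 members with the smallest p in each comparison, and from each list the called genes or else the 2 with the smallest p. A marker each of the oligodendrocyte and microglia lists is not reported here and was left out of their scores and counts. A few further members are named with values to fill out a role. Depth limits the genes of few reads, and the counts are reads, not molecules.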

Additional observations from a re-analysis of the deposited data

Results flagged for a closer look

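In groups of 10 the highest or lowest library was checked for a gap to its neighbour that is large against the group's range, which chance alone gives in about 1 of 20 groups. This was done for 18 members in Aging mPF4, and 7 stood out. Aging mPF4 replicate 3 had a log2 CPM of 10.38 for Gfap, where the next highest library had 9.74 and the median was 9.43. Aging mPF4 replicate 8 stood out for 5 members. It was lowest for Vim (4.31, median 5.52), Gldc (5.06, median 5.604) and Slc4a4 (7.07, median 7.54), and highest for Gja1 (8.77, median 8.24) and Sparcl1 (10.74, median 10.47). The same library had the lowest length index of its group, -0.23, with the next at -0.07, and it was lowest for 10 and highest for 13 of the 40 tested members. Its total of 12380047 reads was above the median of the group. Young Veh was not a group of 10 and was not checked in this way. Young Veh replicate 4 had a length index of -0.35, and was lowest of its group for Vim, Gldc and Slc4a4 and highest for Gja1 and Sparcl1. Aging mPF4 replicate 9 was lowest for S100b, at 5.89 against a median of 6.14. Without Aging mPF4 replicate 8 the log2 fold change of Aldh1l1 for mPF4 in aging mice was 0.22, with an adjusted p in edgeR of 0.233, against 0.19 and 0.391 with it.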

How the results depend on the processing

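In vehicle mice the number of the 40 members called with age, 5 in the reported fit, was 3 with no count filter, 3 with a replicate block, 2 with the choroid plexus score in the fit, 3 with the oligodendrocyte score and 1 without the 8 libraries of lowest depth (4 of Aging Veh, 2 of Young mPF4, 1 of Young Veh and 1 of Aging mPF4). It stayed between 4 and 7 in the other alternatives, and between 1, without Aging Veh replicate 1, and 6 with single libraries left out; it fell to 3 or fewer without Young Veh replicates 3, 5, 11 or 13 or Aging Veh replicates 1, 2, 3, 5, 6, 7 or 9. In mPF4 mice, with 1 call reported, there were 2 with DESeq2 (Gfap and Slc1a2), 0 with the groups fitted alone and 0 with the oligodendrocyte score, and 1 in every leave-one-out fit. For mPF4 in either age and for the interaction 0 members were called in every alternative and leave-one-out fit. Slc1a2 was called with age in 11 of 11 alternatives (10 in vehicle mice and the average over both treatments), with adjusted p from 2.95e-07 to 0.0178, Glul in 9, Slc7a10 in 8, S100b in 6 and Aldh1l1 in 4. Gfap, not called in the reported fit, was called in 4, of which 3 were in vehicle mice. None of the 6 called log2 fold changes changed sign in any alternative or leave-one-out fit. Of those not called, 12 of 35 with age in vehicle mice, 13 of 39 with age in mPF4 mice, 19 and 22 of 40 for mPF4 in aging and young mice and 20 of 40 for the interaction did in at least 1 fit, among them Aldh1l1 with age in mPF4 mice, at 0.0076 without the 8 shallow libraries and 0.0013 without Aging mPF4 replicate 8. The counts of all genes moved more than 1.5-fold in vehicle mice to 901 with the length index, 176 without the 8 shallow libraries and 838 averaged over treatments, from 492. In mPF4 mice they went from 59 to 90 with DESeq2 and with the block, 98 with the length index, 21 with the groups alone and 25 with the oligodendrocyte score. For mPF4 in aging mice they went from 6 to 24 with DESeq2, 10 with the block and with the choroid plexus score, 11 with the oligodendrocyte score, and 0 with the groups alone, the length index or without the shallow libraries, and for the interaction from 0 to 1 with no filter.

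Replicate numbers did not pair the mice: same-numbered libraries correlated between -0.42 and 0.55 in their deviations over 66 pairs, 21 of them above 0.1. With the number as a block, Slc1a2 kept an adjusted p of 0.00154, Glul of 0.0390 and Slc7a10 of 0.0263, and S100b (0.0537) and Aldh1l1 (0.0719) did not pass. Among the 8 shallow libraries no group pair had enough mice for values of its own. Causes of these shifts were not tested.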
